A study of Mus musculus with 6 samples.

Results

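The transcripts of 10 genes of mitochondrial fusion, fission and mitophagy were followed in mouse hearts with and without a deletion of Mrps5 in cardiomyocytes, a gene whose product belongs to the mitochondrial ribosome's small subunit. They were chosen by symbol from the deposited expression table as Opa1, Mfn1 and Mfn2 (fusion), Dnm1l, Fis1 and Mff (fission), and Pink1, Bnip3, Bnip3l and Fundc1 (mitophagy). Each symbol matched 1 row, giving 10 of 54532 genes, and all 10 were among the 12944 tested, which averaged 0.5 FPKM or more. FPKM are fragments per kilobase of gene, scaled to library size, so levels of different genes can be set side by side.

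Poly-A RNA was sequenced from 6 hearts. The 3 control hearts (Ctrl) came from mice with the floxed genotype Mrps5 fl/fl. The 3 knockout hearts (cKO) came from Mrps5 fl/fl;MCM mice, in which MCM is MerCreMer, a Cre recombinase that tamoxifen activates and that the αMHC promoter restricts to cardiomyocytes. Both groups received intraperitoneal tamoxifen at 45 mg/kg/day for 5 days from 8 weeks of age, and the hearts were taken 12 weeks later. Only cKO mice carried the Cre transgene, so the effect of Cre itself and that of the deletion cannot be told apart. The labels name heart tissue and the paper's methods ventricular tissue, and cell types were not separated. In such bulk RNA fewer cells of a type and less RNA per cell cannot be told apart.

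Mitochondria form a network that is remodelled by dynamin-like GTPases. The mitofusins MFN1 and MFN2 join outer membranes and OPA1 joins inner membranes and holds cristae junctions tight, whereas the cytosolic GTPase DRP1, the product of Dnm1l, is recruited by outer membrane proteins such as MFF and FIS1 to divide the organelle. In mitophagy, damaged mitochondria are delivered to autophagosomes, either after the kinase PINK1 accumulates on them and sets off the ubiquitination of their surface, or through the receptors BNIP3, BNIP3L (NIX) and FUNDC1, which sit in the outer membrane and bind LC3 proteins directly. Cardiomyocytes are densely packed with mitochondria, and loss of either mitofusins or DRP1 is harmful to the adult heart.

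The libraries held 15989322 to 24875499 reads assigned to genes. Mrps5 was at 20.4% of its Ctrl mean in cKO hearts, and the groups did not overlap (5.20 to 6.45 FPKM in Ctrl, 1.12 to 1.31 in cKO). The defining cardiomyocyte markers were abundant in every heart, but 7 of 10 were lower in cKO, against 17.0% of all genes tested. Their summed level was 20272 to 24892 FPKM in Ctrl and 11770 to 19243 in cKO. By its sex-linked RNA a single heart stood apart. In cKO replicate 2 Eif2s3y, Uty, Kdm5d and Ddx3y, which lie on the Y chromosome, were at 0 and Xist was at 10.7 FPKM, whereas the other 5 hearts had a Y-linked sum of 30.4 to 35.2 FPKM and Xist at 0.127 FPKM or less. Y-linked RNA marks male and Xist female tissue, so this heart carried the female pattern and the others the male one, whereas the study's reporting summary names male mice only. Whether a sample was exchanged or mixed was not tested, and the changes of the 10 genes are also given without this heart.

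Of the 10 genes, 4 were lower in cKO (Pink1, Bnip3, Fundc1 and Opa1), none was higher, and 6 did not pass the test (limma on log2(FPKM + 1), Benjamini-Hochberg adjustment over all genes tested, threshold 0.05). At an unadjusted p under 0.05, 5 were lower and 0 higher, and voom on the recovered reads also gave 4 lower and 0 higher. When each heart was scaled to its cardiomyocyte markers, 0 of the 10 were lower. That fit called 236 of 13010 genes lower and 3611 higher. Without that scaling, 17.0% of all genes tested were lower and 16.3% higher, 33.3% in either direction. The 3 Ctrl hearts all lay above the 3 cKO hearts for 8 of the 10 genes, against 26.4% of all genes for this direction and 51.2% for either direction. The median log2 fold change of the 10 was -0.27, and that of all genes tested was -0.02. A log2 fold change here is the difference in mean log2(FPKM + 1) of cKO from Ctrl, which understates the change of weakly expressed genes (Mrps5 was at -1.65, and at -2.20 with a pseudocount of 0.1).

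**Figure D1:**
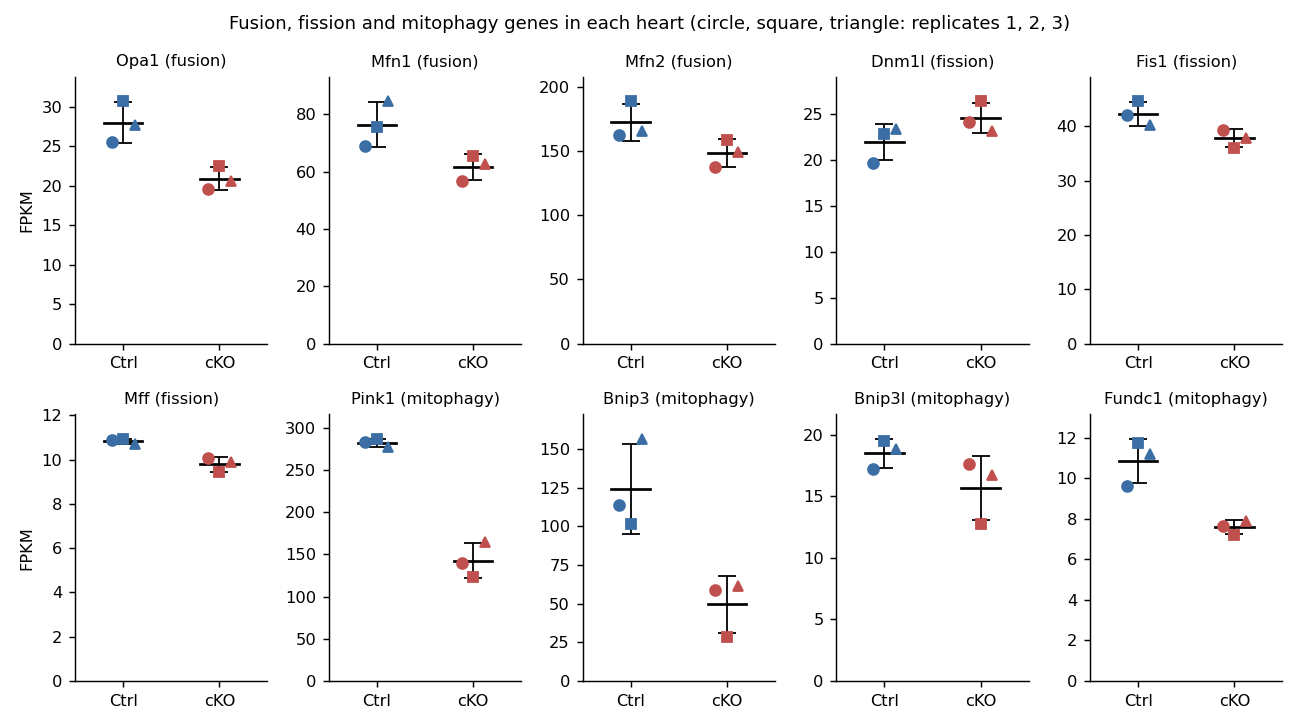
FPKM of each of the 10 genes in the 3 Ctrl hearts (blue) and the 3 cKO hearts (red), with circle, square and triangle for replicates 1, 2 and 3, a bar at the mean and whiskers of 1 SD. The groups are apart for 8 genes, with every cKO heart below every Ctrl heart, and overlap for Dnm1l and Bnip3l.

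Fusion transcripts were lower in cKO hearts in all 3 genes by their means, and Opa1 alone passed the test, where 17.0% of all genes tested were lower. Opa1, which encodes the inner membrane fusion GTPase (GRCm38 chromosome 16, 29579334 to 29654884, plus strand, 30 exons in the transcript with most), was at 25.6, 30.7 and 27.7 FPKM in Ctrl replicates 1 to 3 and at 19.6, 22.5 and 20.7 in cKO. The groups lay apart, and cKO hearts were more alike than Ctrl hearts. The mean fell from 28.0 ± 2.59 to 20.9 ± 1.43 FPKM (SD, n = 3 each), 74.7% of Ctrl, a log2 fold change of -0.40 (SE 0.0922, 95% interval -0.62 to -0.18, limma adjusted p 0.0168). The call was lost without Ctrl replicate 2 (-0.34, limma adjusted p 0.0545) and without Ctrl replicate 3 (-0.41, limma adjusted p 0.0527).

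Mfn1 (chromosome 3, 32529465 to 32579239, plus strand) measured 68.9, 75.4 and 84.5 FPKM in the Ctrl hearts and 56.7, 65.3 and 62.8 in the cKO hearts. All cKO values lay below all Ctrl values. The means were 76.2 ± 7.82 and 61.6 ± 4.43 FPKM, with a log2 fold change of -0.30 (95% interval -0.54 to -0.06) that just missed the threshold (limma adjusted p 0.0566). Mfn2 (chromosome 4, 147873599 to 147904704, minus strand), whose product also tethers mitochondria to the endoplasmic reticulum, was the more abundant mitofusin at 163, 189 and 166 FPKM in Ctrl and 137, 159 and 149 in cKO. Its highest cKO heart, replicate 2, was only slightly below the lowest Ctrl heart. Its log2 fold change of -0.21 did not pass (95% interval -0.44 to 0.01, limma adjusted p 0.122).

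None of the 3 fission genes passed the test in limma, 0 had an unadjusted p under 0.05, and voom called 0. The share of all genes tested that passed in limma was 33.3% in either direction. Dnm1l, the gene of DRP1 (chromosome 16, 16312230 to 16358959, minus strand), was the only one of the 10 with a higher mean in cKO. Its values of 19.7, 22.8 and 23.4 FPKM in Ctrl overlapped with 24.2, 26.4 and 23.2 in cKO. The log2 fold change was 0.16 (95% interval -0.06 to 0.37, limma adjusted p 0.230).

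Fis1 (chromosome 5, 136953275 to 136966234, plus strand), an outer membrane adaptor, was at 42.0, 44.6 and 40.3 FPKM in Ctrl and 39.4, 36.0 and 37.9 in cKO hearts, without overlap. The log2 fold change was -0.16 (95% interval -0.33 to 0.02, limma adjusted p 0.140). Mff (chromosome 1, 82724890 to 82752394, plus strand), the main DRP1 receptor in many cells, varied least between hearts, at 10.9, 10.9 and 10.7 FPKM in Ctrl and 10.1, 9.42 and 9.87 in cKO. Its groups did not overlap either, and the difference was small, at -0.13 on the log2 scale (95% interval -0.28 to 0.02, limma adjusted p 0.155).

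Of the 4 mitophagy genes, 3 were lower in cKO, against 17.0% of all genes tested. Bnip3 and Pink1 had the lowest log2 fold changes of the 10. Pink1, the kinase that marks depolarised mitochondria (chromosome 4, 138313409 to 138326307, minus strand), was the most abundant of the 10 genes in Ctrl hearts, at 284, 287 and 277 FPKM. In cKO hearts it was at 140, 124 and 164 FPKM. No cKO heart came near the Ctrl range, and the coefficient of variation was 1.71% in Ctrl and 14.4% in cKO. The mean fell from 282 ± 4.83 to 143 ± 20.5 FPKM, 50.5% of Ctrl, with a log2 fold change of -0.99 (SE 0.111, 95% interval -1.25 to -0.73, limma adjusted p 0.00176). Among all genes tested, 2.09% had a lower log2 fold change.

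Bnip3, a mitophagy receptor that hypoxia induces (chromosome 7, 138890836 to 138909519, minus strand), measured 114, 102 and 157 FPKM in the Ctrl hearts and 59.1, 28.4 and 61.1 in the cKO hearts. Both groups were spread, Ctrl by replicate 3 at the top and cKO by replicate 2 at the bottom, yet they did not overlap. The mean fell from 124 ± 28.8 to 49.5 ± 18.3 FPKM, 39.9% of Ctrl. The log2 fold change of -1.36 was the lowest of the 10 and had the widest interval (SE 0.308, 95% interval -2.09 to -0.63, limma adjusted p 0.0160). Without Ctrl replicate 3 it was -1.18 and no longer passed (limma adjusted p 0.0554), and without cKO replicate 2 it was -1.01 (limma adjusted p 0.0112).

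Some reads of Bnip3 could come from related loci. Of the 100-base stretches of its transcripts, 24.6% also occur in transcripts of other genes, among them the pseudogene Gm6532. That pseudogene was at 1.03 to 2.37 FPKM in Ctrl and 0.0766 to 0.853 in cKO. Gm18258, which lies on the opposite strand within Bnip3, was at 1.07 FPKM or less in every heart. How reads with several alignments were assigned, and whether strand was used, was not stated, and the part of this in the Bnip3 values was not tested.

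Fundc1 (chromosome X, 17556564 to 17572325, minus strand), a receptor for hypoxia-related mitophagy, was at 9.65, 11.8 and 11.2 FPKM in Ctrl and 7.66, 7.23 and 7.91 in cKO hearts. The cKO hearts were tightly grouped below the Ctrl hearts. The mean fell from 10.9 ± 1.09 to 7.60 ± 0.344 FPKM, 69.9% of Ctrl (log2 fold change -0.46, SE 0.0889, 95% interval -0.67 to -0.25, limma adjusted p 0.00915). The gene is X-linked and cKO replicate 2 had the female pattern of Xist and Y-linked RNA, and without that heart the change was -0.43 (limma adjusted p 0.0225). Fundc1 was also the shallowest of the 10, with 305 to 637 reads a heart.

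Bnip3l, the gene of NIX (chromosome 14, 66985239 to 67008877, minus strand), was at 17.2, 19.5 and 18.8 FPKM in Ctrl and 17.6, 12.7 and 16.7 in cKO. The groups overlapped, and only cKO replicate 2 was clearly low. Its log2 fold change of -0.24 did not pass (95% interval -0.54 to 0.06, limma adjusted p 0.189) and was -0.10 without that heart. Its transcripts share 14.0% of their 100-base stretches with Bnip3l-ps, at 5.77 to 6.46 FPKM in Ctrl and 4.20 to 5.85 in cKO.

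**Figure D2:**
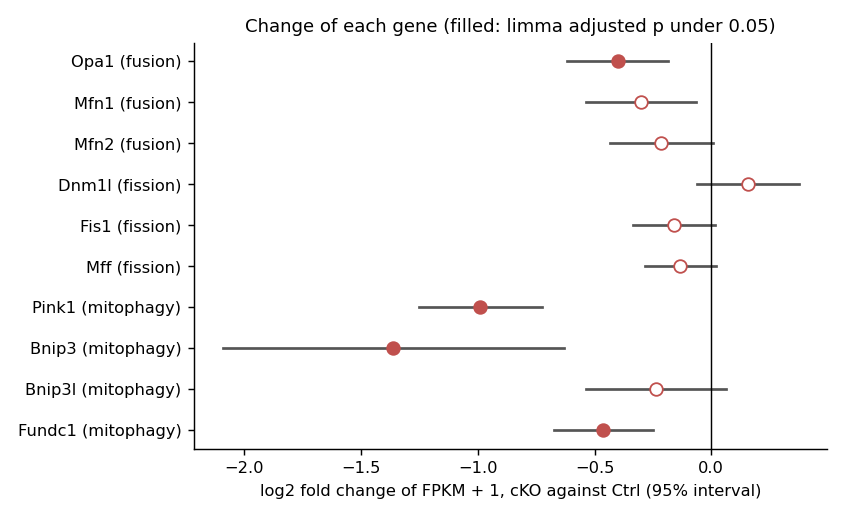
Log2 fold change of each gene in cKO against Ctrl hearts with its 95% interval from limma, filled where the adjusted p is under 0.05. Pink1 and Bnip3 lie at -0.99 and -1.36, Opa1 and Fundc1 at -0.40 and -0.46, and Dnm1l alone lies to the right of 0.

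The promoters of Bnip3 and Pink1 are shown because these 2 genes had the lowest log2 fold changes. They run from 250 bases before to 50 bases after the RefSeq start on GRCm38.p6, on the minus strand, at chr7:138909457-138909756 for Bnip3 and chr4:138326247-138326546 for Pink1. Capitals mark CACGTG (the E-box bound by MYC and TFEB family factors), ACGTG or GCGTG (the core letters of hypoxia response elements), searched on both strands, where CACGTG contains ACGTG.
Bnip3: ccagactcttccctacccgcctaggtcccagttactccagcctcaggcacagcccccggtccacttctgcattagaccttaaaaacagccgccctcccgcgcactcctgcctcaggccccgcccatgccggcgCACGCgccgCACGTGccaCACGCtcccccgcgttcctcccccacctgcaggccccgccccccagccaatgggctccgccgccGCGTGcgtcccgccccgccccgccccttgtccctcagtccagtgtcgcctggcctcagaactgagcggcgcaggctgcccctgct
Pink1: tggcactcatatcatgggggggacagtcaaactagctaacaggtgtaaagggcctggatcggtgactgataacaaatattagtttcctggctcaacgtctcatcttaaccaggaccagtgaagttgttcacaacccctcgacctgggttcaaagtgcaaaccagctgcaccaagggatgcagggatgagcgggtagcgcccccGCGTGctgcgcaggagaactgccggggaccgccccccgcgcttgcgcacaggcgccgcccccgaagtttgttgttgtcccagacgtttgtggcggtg

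In the Bnip3 promoter CACGTG began 108 bases before the start, and GCGTG occurred 3 times, 117, 99 and 35 bases before it. The Pink1 promoter held GCGTG once, 47 bases before the start. Of 32851 promoters of this length, 7.15% held CACGTG, 19.6% ACGTG and 32.4% GCGTG. These shares were not matched for base composition. G and C made up 71.7% of the Bnip3 promoter and 58.0% of the Pink1 promoter, against a median of 52.7% over all promoters. Among the 9 genes with a promoter in the table (14 promoters), CACGTG was found for Bnip3 alone, ACGTG for Bnip3 and Mfn2, and GCGTG for Bnip3, Pink1, Mfn2, Dnm1l and Fis1, and Opa1 and Fundc1, which also fell, held none of these letters. TCAAGGTCA, the letters of an estrogen-related receptor element, and TGATGNAA, those of an amino acid response element, were in none of the 14 and in 0.423% and 3.97% of all promoters. These matches describe letters in a window and not binding.

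Ordered by level, Ctrl hearts ran from Pink1 through Mfn2, Bnip3, Mfn1, Fis1, Opa1, Dnm1l and Bnip3l to Fundc1 and Mff, the last pair overlapping. In cKO hearts Mfn2 and Pink1 overlapped at the top, and Mfn1 overlapped with Bnip3. The summed level of the 10 genes was 754, 793 and 816 FPKM in Ctrl and 512, 490 and 553 in cKO, 65.8% of Ctrl. Pink1 made up 35.9% of that sum in Ctrl and 27.4% in cKO hearts, and Bnip3 15.7% and 9.46%. Mfn2 made up 21.9% and 28.7%, and Dnm1l 2.79% and 4.77%, although the level of neither passed the test. The mean level of Mfn2 was lower in cKO (172 in Ctrl and 148 FPKM in cKO), and its share grew because the sum fell further.

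Sums and ratios within a heart describe the balance between transcripts, and fusion and fission themselves were not measured. Mfn2 was the largest part of the fusion sum and Fis1 of the fission sum. The fusion sum was 257, 295 and 278 FPKM in Ctrl and 214, 247 and 232 in cKO (exact permutation p 0.1, two-sided, the smallest that 3 against 3 hearts allow), while the fission sum overlapped at 72.6 to 78.3 and 70.9 to 73.6 FPKM (exact permutation p 0.2). The ratio of fusion to fission was 3.54, 3.76 and 3.74 in Ctrl and 2.90, 3.43 and 3.28 in cKO, lower in every cKO heart (exact permutation p 0.1). The difference of -0.48 was -0.59 without cKO replicate 2. With medians in place of sums it was -0.96, but a median of 3 genes is the middle gene. In every heart that ratio was Mfn1 to Dnm1l alone. Opa1 to Dnm1l was 1.30, 1.35 and 1.18 in Ctrl and 0.812, 0.850 and 0.891 in cKO, a ratio chosen after the levels were seen and given as a description.

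The 2 mitofusins kept a similar proportion, with Mfn2 to Mfn1 at 2.28 ± 0.281 in Ctrl and 2.41 ± 0.0310 in cKO, and overlapping values (exact permutation p 0.7). The 2 related receptors did not. Bnip3 to Bnip3l was 6.63, 5.22 and 8.33 in Ctrl and 3.36, 2.23 and 3.66 in cKO (exact permutation p 0.1). The summed level of the receptors Bnip3, Bnip3l and Fundc1 was 141, 133 and 187 FPKM in Ctrl and 84.4, 48.3 and 85.7 in cKO, 47.4% of Ctrl.

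**Figure D3:**
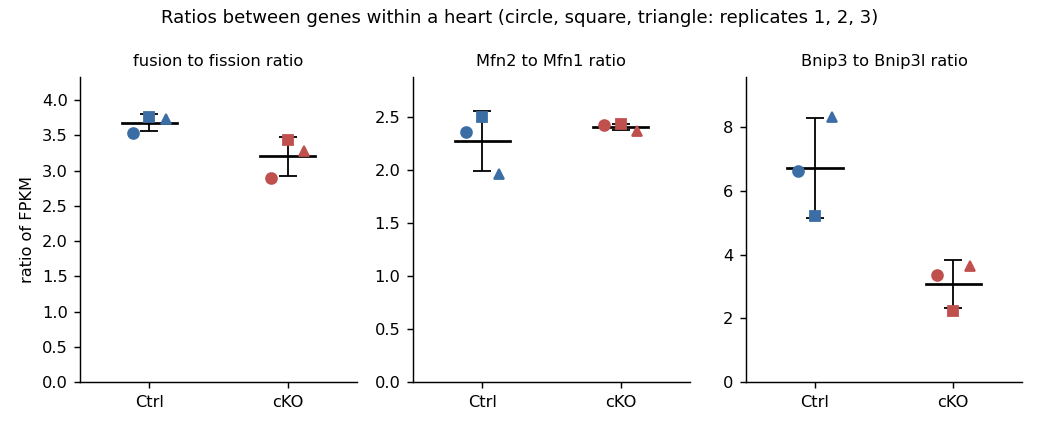
Ratios of FPKM within each heart for Ctrl (blue) and cKO (red), with circle, square and triangle for replicates 1, 2 and 3, a bar at the mean and whiskers of 1 SD. The groups are apart for fusion to fission and Bnip3 to Bnip3l, and overlap for Mfn2 to Mfn1.

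Within the cKO group, replicate 2 had the lowest Pink1, Bnip3, Bnip3l, Fundc1, Fis1 and Mff and the highest Opa1, Mfn1, Mfn2 and Dnm1l. Relative to the Ctrl mean, Pink1 was at 49.6%, 43.7% and 58.2% in cKO replicates 1 to 3, and Bnip3 at 47.6%, 22.9% and 49.2%. Leaving that heart out kept all 4 calls, with Pink1 at -0.89 (limma adjusted p 0.00327) and Opa1 at -0.45 (limma adjusted p 0.0182). The other genes did not pass without it, with Mfn1 at -0.34, Mfn2 at -0.26, Dnm1l at 0.11, Fis1 at -0.13 and Mff at -0.11. The difference in cardiomyocyte markers moved with the genotype, so each heart was also scaled to their summed level. Then the median of all genes moved from -0.02 to 0.39, Pink1 stood at -0.44 and Bnip3 at -0.82, and none of the 10 passed in limma (1 lower, Bnip3, and 1 higher, Dnm1l at 0.69, had an unadjusted p under 0.05). The other 7 were then above 0, Opa1 at 0.13 and Fundc1 at 0.04 among them. In all, 236 of 13010 genes tested were lower under this scaling and 3611 higher. Relative to the median of all genes, Pink1 was at -0.83, Bnip3 at -1.21, Fundc1 at -0.35 and Opa1 at -0.26. The markers themselves changed by unlike amounts, with log2 fold changes from -1.43 to -0.20 before this scaling. Dividing by their sum therefore cannot separate cardiomyocyte content from RNA per cell. The part of cardiomyocyte content in these differences was not tested.

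Other genes of these processes, taken from lists, showed no uniform direction. The counts below stand against 17.0% lower and 16.3% higher among all genes tested, 33.3% in either direction. Of the 11 genes named from them here, 10 kept their call without cKO replicate 2, and Oma1 did not (-0.24, limma adjusted p 0.0958). Among 10 regulators of fusion tested, 1 was lower, the inner membrane protease gene Oma1, whose product cleaves OPA1 under stress (13.3 ± 1.11 against 11.0 ± 0.255 FPKM, log2 fold change -0.25, limma adjusted p 0.0499). Among 10 fission partners, 3 were higher and 2 lower. Dnm2, a dynamin of endocytosis that has also been linked to fission, rose from 14.1 ± 1.22 to 22.2 ± 1.83 FPKM (0.62, limma adjusted p 0.00402). Mtfp1, an inner membrane protein named for its part in fission, fell from 86.6, 101 and 97.7 FPKM to 39.7, 64.7 and 55.8 (-0.85, limma adjusted p 0.0115).

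Among genes that act with PINK1, 2 of 12 genes were higher, 1 was lower and 9 did not pass, against 33.3% of all genes passing in either direction. Sqstm1, the gene of the autophagy adaptor p62, rose from 167, 173 and 154 FPKM to 297, 255 and 325 (0.82, limma adjusted p 0.00279), opposite to Pink1, while the adaptor gene Nbr1 fell from 20.5 ± 1.12 to 15.7 ± 1.02 FPKM (-0.37, limma adjusted p 0.0136). Of 7 other mitophagy receptors, 3 were lower and 4 did not pass, against 17.0% lower among all genes. The lowest change was in Nipsnap2, a matrix protein gene whose product recruits autophagy adaptors, at 323, 385 and 348 FPKM in Ctrl and 177, 198 and 224 in cKO (-0.82, limma adjusted p 0.00307). Of 5 ATG8 family genes, whose products the receptors bind, 2 were lower, led by Map1lc3a at 459, 472 and 482 against 325, 290 and 328 FPKM (-0.58, limma adjusted p 0.00315).

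The MICOS complex and its partners, which shape the cristae junctions together with OPA1, had 1 of 8 genes higher and 3 lower. Of all genes, 16.3% were higher and 17.0% lower. Chchd6 rose from 3.35 ± 0.397 to 7.72 ± 1.20 FPKM (1.00, limma adjusted p 0.00235), and Apool fell from 11.0 ± 1.03 to 7.90 ± 0.369 FPKM (-0.43, limma adjusted p 0.00994). In outer membrane transport, 1 of 4 genes was lower, the Miro GTPase gene Rhot2, at 24.2 ± 2.14 against 15.2 ± 0.449 FPKM (-0.63, limma adjusted p 0.00283). Of 8 general mitochondrial markers, 4 were higher and 4 did not pass, against 16.3% higher among all genes, and the means of Vdac1, Cs and Timm23 were lower in cKO. Their sum was 980 to 1106 FPKM in the Ctrl and 1150 to 1163 in the cKO hearts, but without Hspd1 it overlapped, at 824 to 937 and 828 to 869 FPKM. Hspd1, the gene of the matrix chaperonin HSP60, rose most, from 156 ± 12.7 to 304 ± 27.4 FPKM (0.95, limma adjusted p 0.00148).

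**Figure D4:**
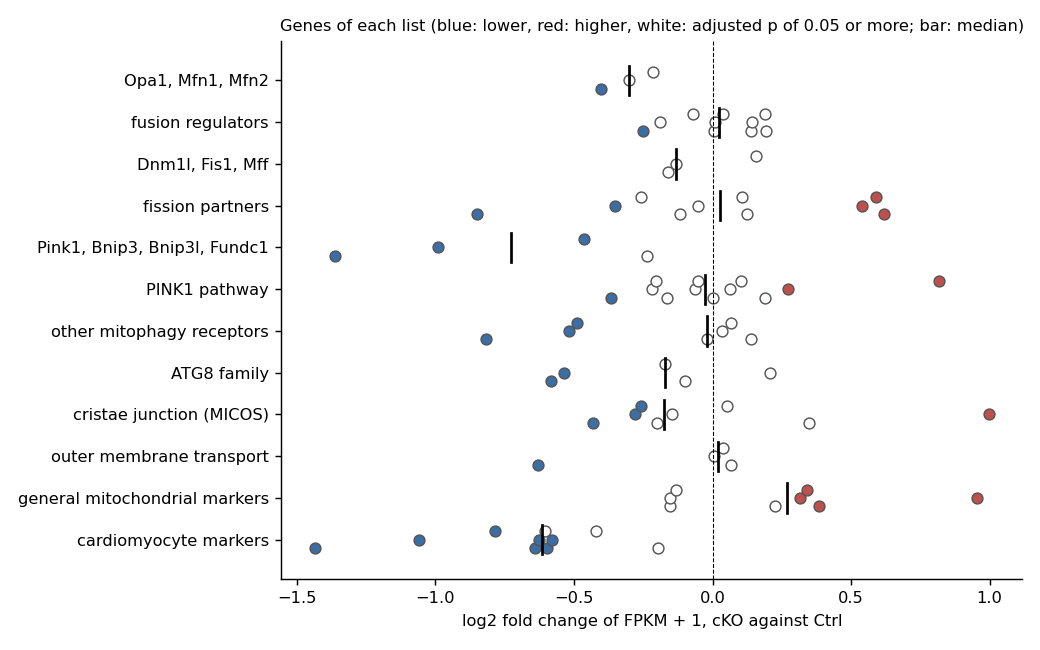
Log2 fold change of each gene in cKO against Ctrl, by list, with blue for lower, red for higher and white for an adjusted p of 0.05 or more, and a bar at each list's median. The median is -0.73 for the 4 mitophagy genes, 0.27 for general mitochondrial markers and -0.62 for cardiomyocyte markers.

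Markers of other cell types differed between groups as well, where 17.0% of all genes tested were lower and 16.3% higher. Of 4 endothelial markers, 3 were lower, with sums of 103 to 119 FPKM in Ctrl and 67.6 to 80.0 in cKO. Fibroblast sums (150 to 174 against 138 to 153 FPKM) and macrophage sums (186 to 244 against 132 to 196 FPKM) overlapped, with 2 of 6 fibroblast genes higher and 1 lower and 1 of 5 macrophage genes lower. Of 2 smooth muscle genes tested, 1 was higher, and the sums were 15.8 to 28.1 FPKM and 27.8 to 53.0 FPKM. Blood sums (880 to 2056 against 585 to 1588 FPKM) and atrial sums (25.2 to 990 against 105 to 714 FPKM) overlapped widely, and of their 5 and 3 genes 0 had an adjusted or unadjusted p under 0.05 in limma. The atrial sum was 990 FPKM in Ctrl replicate 1 and 714 in cKO replicate 3, against 25.2 to 221 in the other hearts. How much atrial tissue each heart held was not tested. Of 3 genes of the skeletal muscle list tested, Acta1, which cardiomyocytes also express, was higher and Ckm and Tnni2 were lower. The list's sums of 610 to 765 and 1040 to 2690 FPKM rested on Acta1. Without it they were 362 to 444 in Ctrl and 289 to 299 in cKO, nearly all from Ckm (360 to 443 and 288 to 298 FPKM). Tnni2, Tnnt3 and Myh4 were at 1.09 FPKM or less in every heart, so sums carried by Acta1 and Ckm are no measure of skeletal muscle content. The part of these cell types in the values of the 10 genes was not tested.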

How the data were processed

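Heart RNA of 3 Ctrl and 3 cKO mice was analysed, grouped by sample title. The authors selected poly-A RNA, sequenced paired ends and deposited FPKM per gene and heart, together with the gene length in base pairs, another deposited value. The submitters' processing notes name HISAT2 2.0.5, featureCounts 1.5.0-p3, DESeq2 1.16.1 and build mm9. The coordinates in the table instead match GENCODE M21 (GRCm38), with identical start and end for 53499 of 54409 shared identifiers and for all 10 genes, and are given as GRCm38. The labels place tamoxifen at 8 weeks of age and the hearts 12 weeks later, whereas the methods call the mice 12 weeks old.

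FPKM times gene length gave whole reads for 100% of values (tolerance 0.1 read). The implied library sizes, 0.913 to 1.06 times the read totals, show that values had already been scaled between hearts. Hearts of a group differed by more than counting noise, and p-values measure the spread between these hearts.

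Values were tested as log2(FPKM + 1) with limma 3.58.1 in R 4.3.3 (eBayes with trend, no covariates, two-sided) on genes averaging 0.5 FPKM or more, with Benjamini-Hochberg adjustment over all genes and a threshold of 0.05. The procedure was tested on simulated tables with known changes, in which the share of false calls averaged slightly above the nominal threshold and fitted changes slightly below the true ones. Those tables held far fewer changed genes than were called here, and only changes larger than those of Opa1 and Fundc1. They therefore do not show how often calls like these are false. DESeq2, the authors' count test, was replaced because the deposited unit is FPKM. The call counts and the log2 fold changes of the chosen fusion, fission and mitophagy genes were recomputed under alternative settings. These were a 0.1 pseudocount, no filter, a 1 FPKM minimum, other scalings, eBayes lacking the trend and voom on recovered reads. A replicate block and the omission of each heart were also used. The ratios of fusion to fission, Mfn2 to Mfn1 and Bnip3 to Bnip3l were recomputed without each heart. Reads per kilobase recovered from FPKM give the same ratios by construction and were no check of them. Fusion to fission was also recomputed with medians. Named list genes other than the regulators were refitted only without cKO replicate 2. Other sums, shares and ratios, and the regulators, were not recomputed in these ways. Ratios were compared by exact permutation.

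The text names the 10 genes, Mrps5 and, from each list of related genes, the largest rise and largest drop past the threshold on the log2(FPKM + 1) scale. From the list of regulators, all 7 passing genes are named. Cell type lists are given as counts and sums. A gene of the lists is not reported here, though it remains in the counts. The genes and lists were chosen with earlier results of these data known, and the list of regulators was added after the values were available. Promoters came from RefSeq on GRCm38.p6, with a promoter for 9 of the 10 genes and none for Bnip3l. Shared 100-base stretches were counted between GENCODE M21 transcripts.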

Additional observations from a re-analysis of the deposited data

How the results depend on the processing

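Of 150 values of the 10 genes under 15 alternatives, 138 kept their direction and side of the threshold, 5 lost their call and 7 reversed, and 12 alternatives kept all 4 calls. Scaling to cardiomyocyte markers accounted for 9 of these 12 changes. It gave 3611 genes higher and 236 lower in all, and 0 of the 10 genes lower, with Opa1 at 0.13, Mfn1 at 0.24, Mfn2 at 0.33, Fis1 at 0.38, Mff at 0.37, Bnip3l at 0.29 and Fundc1 at 0.0379, while Pink1 was at -0.44 (limma adjusted p 0.233) and Bnip3 at -0.82 (limma adjusted p 0.0835). That scaling moved the median of all genes to 0.39. It divided Ctrl replicates 1 to 3 by 1.14, 1.38 and 1.13 and the cKO replicates by 0.655, 1.07 and 0.804. The spread also grew for all 10 genes, with the SE of Pink1 going from 0.111 to 0.289 and that of Fundc1 from 0.0889 to 0.253. Under the other 14 alternatives Pink1 ranged from -1.10 to -0.89 (limma adjusted p 0.000712 to 0.0105), Bnip3 from -1.55 to -1.01 (0.00844 to 0.0554), Fundc1 from -0.54 to -0.38 (0.00804 to 0.0372) and Opa1 from -0.46 to -0.32 (0.0129 to 0.0545). Leaving out each heart gave 2 to 4 of the 10 genes lower, with 1396 to 1977 genes higher and 1423 to 2011 lower in all, on fewer samples. Opa1 was lost without Ctrl replicate 2 or 3 and Bnip3 without Ctrl replicate 3. With totals that omit mtDNA-encoded genes as the scale, 2649 were higher and 1620 lower (62.1% of calls higher, against 48.9%), and voom gave 2288 higher and 2247 lower. The replicate numbers did not pair the hearts (correlations of deviations -0.06, 0.17 and -0.01). With the replicate block, 1874 genes were higher and 1982 lower, and the same 4 of the 10 genes were lower. The fusion to fission difference of -0.48 became -0.96 with medians in place of sums, which is the ratio of Mfn1 to Dnm1l alone. The Mfn2 to Mfn1 difference of 0.13 ranged from -0.023 to 0.248 when each heart was left out, reversing without Ctrl replicate 3. The causes were not tested. Depth limits Fundc1 most, and 3 hearts a group limit all single values to an exact p of 0.1 or more.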

Other observations

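Genes of transcription factors and coactivators known to act on some of these 10 genes formed a list added after the values were available. They did not move in 1 direction, with 3 of 10 higher, 4 lower and 3 not passing the test. Among all genes tested, 16.3% were higher and 17.0% lower. Hif1a, the gene of the hypoxia factor that induces Bnip3, rose from 8.43 ± 0.172 to 13.1 ± 0.476 FPKM (SD, n = 3 each, log2 fold change 0.58, limma adjusted p 0.00176), while Bnip3 fell. Epas1, which encodes HIF-2α and is prominent in endothelial cells, fell from 78.3 ± 6.84 to 42.6 ± 3.63 FPKM (-0.86, limma adjusted p 0.00183).

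Foxo3 and Foxo1, forkhead factors linked to Bnip3 and Pink1 expression, fell as well. Foxo3 was at 23.7 ± 3.68 FPKM in Ctrl and 12.6 ± 3.35 in cKO (-0.88, limma adjusted p 0.0170), and Foxo1 at 2.88 ± 0.241 and 1.68 ± 0.0903 (-0.53, limma adjusted p 0.00379). Ppargc1a, the coactivator gene of mitochondrial biogenesis, fell from 20.2 ± 2.87 to 12.6 ± 1.88 FPKM (-0.64, limma adjusted p 0.0143). Atf4, the gene of the stress response factor, rose from 39.7 ± 1.95 to 115 ± 44.2 FPKM (1.43, limma adjusted p 0.00998), and Myc from 1.99 ± 0.912 to 7.36 ± 2.24 FPKM (1.5, limma adjusted p 0.00922). Whether any of these bears on the 10 genes was not tested.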
